A study of Homo sapiens with 48 samples.

Results

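PLAAT4, STRADB, KISS1, ADGRG1, ABCC3, CD14 and CD68 are 7 genes outside the classical interferon response that were followed in 2 established human breast cancer cell lines. They were chosen by their array levels with an siRNA against the transcription factor IRF1, which lay apart from those with other siRNAs. The 7 genes are carried by 12 probes, of 20045 genes and 30112 probes with 1 gene symbol. Because those arrays chose the genes, every value of the 7 genes with siIRF1 against another siRNA below is a description and is given without a test. The siRNA experiment used MDA-MB-231 cells and 4 siRNAs at 5 nM over 36 h: a control (siCtrl), and others directed at the TNF receptor TNFR1 (siTNFR1, gene TNFRSF1A), at the NF-kB subunit RELA (siRELA) and at IRF1 (siIRF1). Each was studied without BV6 and after 9 h at 50 nM of it, on 3 arrays per group and 8 groups. BV6 is a Smac mimetic, a compound that antagonizes inhibitor of apoptosis proteins. A time course in untransfected MDA-MB-231 cells covered 5 times of exposure to 50 nM BV6, from 3 h to 15 h in steps of 3 h, and untreated cells at 0, 9 and 15 h, on 2 arrays per group. EVSA-T cells carried siCtrl or siTNFR1 (5 nM, 36 h), without BV6 or after 9 h at 5 nM, on 2 arrays per group, and no EVSA-T array had siIRF1. The control for transfection is siCtrl, since every array of the siRNA and EVSA-T experiments was transfected. The labels give 1 siRNA condition per target and no siRNA sequence, so an effect of the loss of IRF1 and an effect of the siIRF1 reagent on other transcripts cannot be told apart within the siIRF1 arrays alone.

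IRF1 is a transcription factor that is induced by interferon gamma and by TNF, and it binds interferon response elements in the promoters of immune genes. The 7 genes have unlike products. PLAAT4 (once named RARRES3) is a phospholipase and acyltransferase that was found as a retinoid-induced gene, STRADB is a pseudokinase that helps to activate the kinase LKB1, ABCC3 is an efflux pump of organic anions, and ADGRG1 (GPR56) is an adhesion G protein-coupled receptor. CD14 is a co-receptor for lipopolysaccharide, CD68 is a glycoprotein of lysosomes and endosomes, and both are used as markers of monocytes and macrophages. KISS1 encodes the precursor of the kisspeptins, secreted peptides first described as suppressors of metastasis.

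Promoter sequence is shown to set the letters of the elements that IRF1 and interferon signalling use against the 3 members in which they occurred. The 250 bases before a RefSeq start site (GRCh38.p14) were searched on both strands for the letters AANNGAAA (an IRF element), GAAA, any 2 bases and GAAA (an interferon-stimulated response element, whose matches can also hold the IRF element) and TTCNNNGAA (a gamma-activated site). Windows were held for 5 of the 7 genes, 7 windows in all, and not for PLAAT4 and ABCC3. The CD68 window held 1 IRF element at 54 to 47 bases before the start, the CD14 window 1 gamma-activated site at 123 to 115 bases, and 1 ADGRG1 window 1 gamma-activated site at 237 to 229 bases. No match to these 3 patterns was found in the windows of STRADB and KISS1. Of 35116 such windows in the table, 20.3% held the IRF element, 3.02% the interferon-stimulated response element and 6.57% the gamma-activated site. Capitals mark the matched bases.
CD68, chr17:7579388-7579637, plus strand: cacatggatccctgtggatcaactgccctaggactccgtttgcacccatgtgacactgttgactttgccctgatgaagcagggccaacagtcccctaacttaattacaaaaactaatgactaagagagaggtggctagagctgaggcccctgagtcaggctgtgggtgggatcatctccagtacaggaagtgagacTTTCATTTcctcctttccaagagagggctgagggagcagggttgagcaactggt
CD14, chr5:140633176-140633425, minus strand: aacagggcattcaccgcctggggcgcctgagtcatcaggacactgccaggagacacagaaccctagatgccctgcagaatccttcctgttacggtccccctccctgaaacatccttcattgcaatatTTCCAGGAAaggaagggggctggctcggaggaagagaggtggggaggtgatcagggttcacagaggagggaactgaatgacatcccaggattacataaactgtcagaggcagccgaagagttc
ADGRG1, chr16:57619488-57619737, plus strand: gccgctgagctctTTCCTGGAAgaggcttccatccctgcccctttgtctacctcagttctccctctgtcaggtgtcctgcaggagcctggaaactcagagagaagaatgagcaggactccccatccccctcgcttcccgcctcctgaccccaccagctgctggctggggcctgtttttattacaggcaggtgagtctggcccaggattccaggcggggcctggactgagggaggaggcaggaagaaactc

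All levels below are log2 signals after background correction and quantile normalisation within an experiment, and a probe is called detected on an array where the deposited detection p is under 0.01. Between 10167 and 13072 probes were detected per array. Precision is set by how many arrays a group has and by how far a probe stands above background, as arrays carry no counts. The samples lay on 4 slides of 12 arrays. Of the cell type markers, 17 genes of a monocyte and macrophage list other than CD14 and CD68 had a probe, of which 0 to 3 were detected on an siRNA array, and PTPRC, the pan-leukocyte marker, was detected on none of the 48. Each of the 9 mesenchymal and basal-like markers measured was lower in EVSA-T than in MDA-MB-231 and 10 of 12 luminal markers were higher, as called by limma with Benjamini-Hochberg adjustment in untreated siTNFR1 cells, where 30.3% of all genes were lower and 32.4% higher.

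IRF1 itself was low on the siIRF1 arrays. With siIRF1 the IRF1 probe read 6.81, 6.87 and 6.06 in untreated cells, detected on 1 of 3 arrays, and 7.31, 7.18 and 6.69 with BV6. With the other siRNAs it read between 9.39 and 10.76 on all 18 arrays. The IRF1 level with siIRF1 was lower than with siCtrl by -3.35 ± 0.25 (log2 difference ± SE, n = 3 arrays a group) in untreated cells and by -3.39 ± 0.25 with BV6.

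All 3 siIRF1 arrays lay outside the range of the 9 arrays of the other siRNAs for all 7 genes, in untreated cells and with BV6, which the choice of the genes fixes. Of these, 6 lay below and KISS1 above. Over all 9586 genes of that experiment, siIRF1 lay below the other arrays for 9.47% in untreated cells and 9.43% with BV6, and above for 6.2% and 6.07%. By size of the difference from siCtrl, PLAAT4 was the lowest and KISS1 the highest of the 9586 genes under both conditions. CD14 stood only at rank 259 and CD68 at rank 402 among the lower genes of untreated cells, and at ranks 549 and 293 with BV6.

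**Figure D1:**
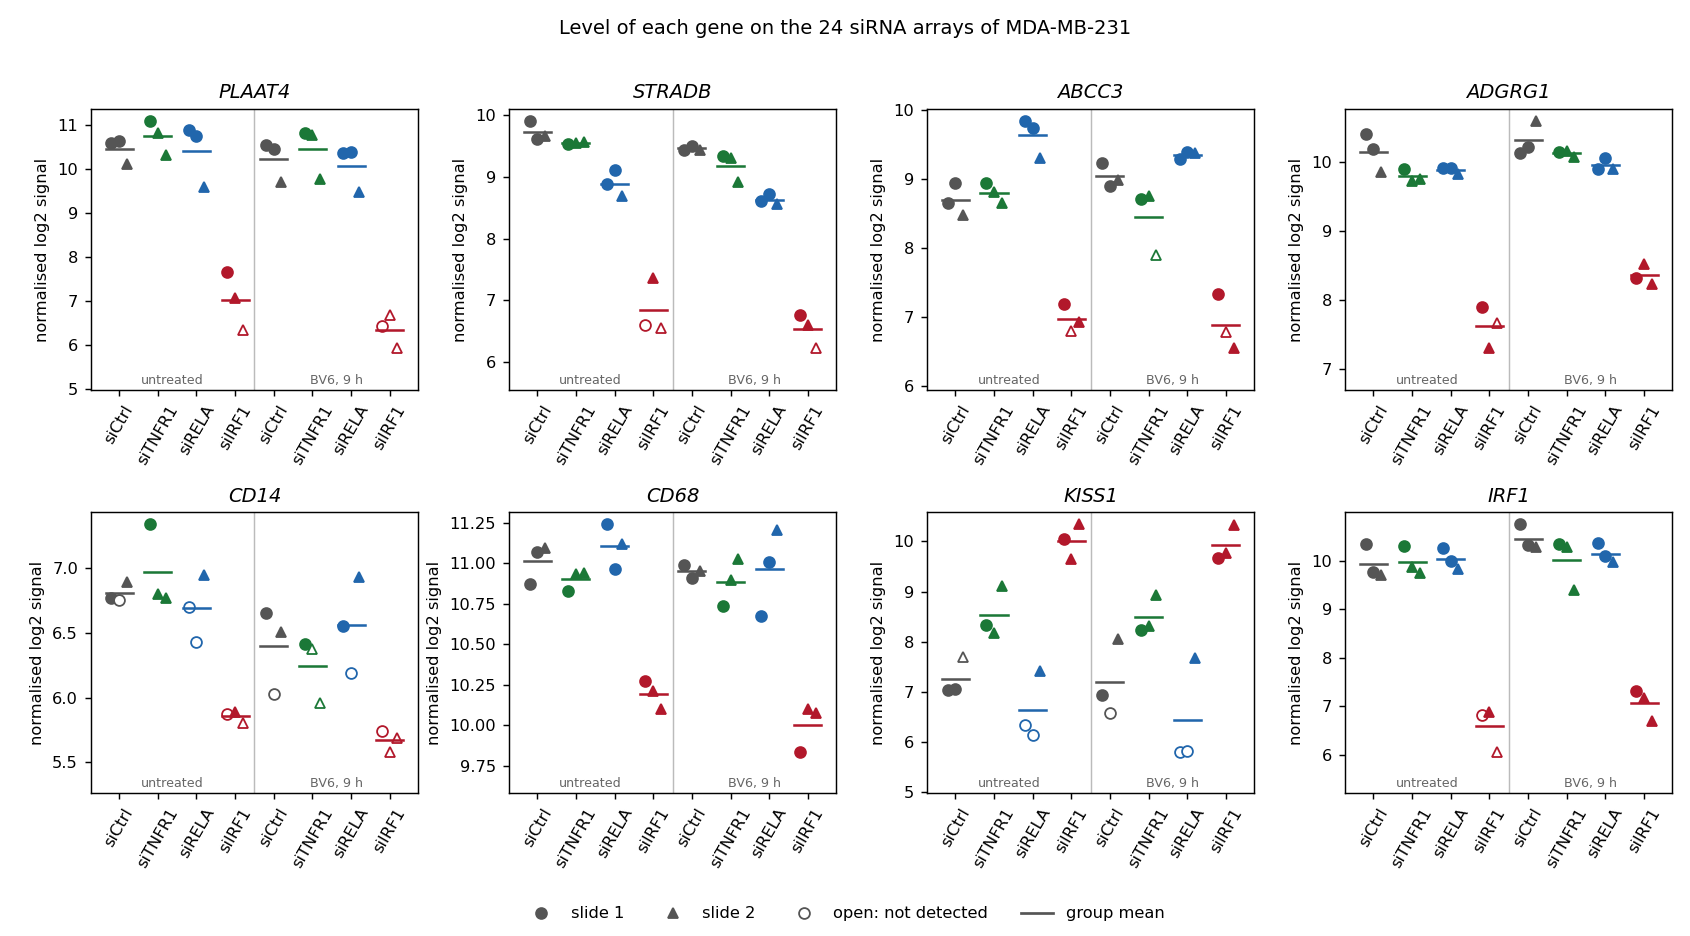
Normalised log2 signal of each gene on the 24 siRNA arrays of MDA-MB-231 (3 per group; circles slide 1, triangles slide 2, open symbols not detected, bars group means). The siIRF1 arrays lie apart from the other siRNAs in every panel, KISS1 is higher with siTNFR1 than with siRELA, and the vertical scales differ between panels.

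PLAAT4 was well above background with every siRNA except siIRF1. In untreated cells it read 10.57, 10.63 and 10.10 with siCtrl, 11.09, 10.81 and 10.30 with siTNFR1, 10.87, 10.73 and 9.59 with siRELA, and 7.65, 7.07 and 6.35 with siIRF1. With BV6 the siIRF1 arrays read 6.44, 6.67 and 5.92 and none of them detected the probe, while the 9 others lay between 9.46 and 10.81. The siIRF1 level was lower than siCtrl by -3.41 ± 0.36 without BV6. With BV6 the probe was undetected with siIRF1, so the measured -3.88 is given as a bound, at least 14.7-fold lower, with no allowance for its error. Against siTNFR1 and siRELA the bounds with BV6 were at least 17.2-fold and 13.2-fold lower, and siTNFR1 and siRELA themselves differed from siCtrl by 0.30 ± 0.36 and -0.03 ± 0.36 in untreated cells.

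STRADB was at the edge of detection with siIRF1, and it was also lower with siRELA. The untreated levels were 9.92, 9.61 and 9.67 with siCtrl, 9.53, 9.56 and 9.56 with siTNFR1, 8.88, 9.12 and 8.69 with siRELA, and 6.60, 7.36 and 6.55 with siIRF1, of which 1 array detected the probe. With BV6 the siIRF1 arrays read 6.76, 6.60 and 6.22 and the siRELA arrays 8.60, 8.72 and 8.56. The siIRF1 difference from siCtrl was -2.90 ± 0.18 and, with BV6, -2.94 ± 0.18. The siRELA difference from siCtrl was -0.84 ± 0.18 under both conditions, with no overlap of the arrays in either, and shares its siCtrl arrays with the siIRF1 difference.

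ABCC3 stood on opposite sides of siCtrl with siIRF1 and with siRELA in untreated cells. Its untreated levels were 8.65, 8.94 and 8.47 with siCtrl, 8.94, 8.80 and 8.64 with siTNFR1, 9.84, 9.74 and 9.31 with siRELA, and 7.19, 6.79 and 6.92 with siIRF1. The siIRF1 difference was -1.72 ± 0.21 and the siRELA difference 0.94 ± 0.21. With BV6 the siIRF1 arrays read 7.32, 6.78 and 6.54, which is -2.15 ± 0.21 from siCtrl, and siRELA differed from siCtrl by 0.31 ± 0.21. One siTNFR1 array with BV6, at 7.90 and not detected, came nearest to the siIRF1 arrays.

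ADGRG1 was lower with siIRF1 and less far so in the presence of BV6. Its main probe read 10.40, 10.19 and 9.85 with siCtrl and 7.90, 7.30 and 7.66 with siIRF1 in untreated cells. With BV6 it read 10.14, 10.22 and 10.60 with siCtrl and 8.32, 8.53 and 8.23 with siIRF1. The differences were -2.53 ± 0.15 and -1.96 ± 0.15, and the siIRF1 arrays with BV6 all lay above those without, by 0.74 ± 0.15. Its other detected probe gave -2.21 and -1.75 for the 2 conditions and 0.76 for BV6 in siIRF1 cells, and the third ADGRG1 probe was detected on no array. IRF1 itself was higher by 0.48 ± 0.25 with BV6 in siIRF1 cells.

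CD14 was dim throughout, and its differences rest on values near background. It read 6.77, 6.75 and 6.90 with siCtrl and 5.87, 5.89 and 5.80 with siIRF1 in untreated cells, with 2 and 1 arrays detected. The difference was -0.95 ± 0.19. With BV6 the siIRF1 arrays read 5.75, 5.58 and 5.69, none detected, and the bound against siCtrl was at least 1.65-fold lower. A second CD14 probe was detected on no array of the series.

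CD68 showed the smallest difference from siCtrl of the 7 genes in untreated cells, and its probes did not give the same picture. The main probe read 10.87, 11.07 and 11.10 with siCtrl and 10.27, 10.22 and 10.10 with siIRF1 in untreated cells, a difference of -0.82 ± 0.13, and -0.95 ± 0.13 with BV6. A second bright CD68 probe differed by only -0.44 and -0.39. On that probe the untreated siIRF1 arrays read 9.15, 9.33 and 9.38 and the siTNFR1 arrays 9.56, 9.20 and 9.56, so the groups overlapped. They overlapped with BV6 too, at 9.19, 9.47 and 9.57 with siIRF1 against 9.49, 9.25 and 9.60 with siTNFR1. CD68 stood apart with siIRF1 from each of the other siRNAs on 1 of its 2 bright probes. The third CD68 probe was detected on 2 of 3 siCtrl and 0 of 3 siIRF1 arrays in untreated cells, and on none of either with BV6.

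KISS1 was the only member with a higher level with siIRF1, and it also differed between the other siRNAs. Its untreated levels were 7.04, 7.07 and 7.69 with siCtrl, 8.34, 8.17 and 9.10 with siTNFR1, 6.34, 6.14 and 7.42 with siRELA, and 10.04, 9.66 and 10.35 with siIRF1. The siIRF1 difference from siCtrl was 2.75 ± 0.41 in untreated cells and 2.73 ± 0.41 with BV6. Against siTNFR1 it was 1.48 ± 0.41 and 1.42 ± 0.41. The siTNFR1 level exceeded siCtrl by 1.27 ± 0.41 and 1.31 ± 0.41, with no overlap of the arrays. KISS1 read highest on replicate 3 in every siRNA group, and replicate 3 lay on slide 2. For siCtrl and siRELA it was the only replicate on that slide. Their arrays read 6.58 to 7.07 and 5.81 to 6.34 on slide 1, and 7.69 to 8.05 and 7.42 to 7.67 on slide 2. Replicate 2 of siTNFR1 and siIRF1 also lay on slide 2. It read 8.17 and 9.66 in untreated cells and 8.32 and 9.77 with BV6. Replicate 1, on slide 1, read 8.34 and 10.04, and 8.24 and 9.67 with BV6. Within slide 1 the untreated siIRF1 array exceeded the mean of the other siRNAs by 3.06, and within slide 2 by 1.91. The other 6 genes were lower with siIRF1 on each of the 2 slides, for example PLAAT4 by -3.13 and -3.49 in untreated cells.

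**Figure D2:**
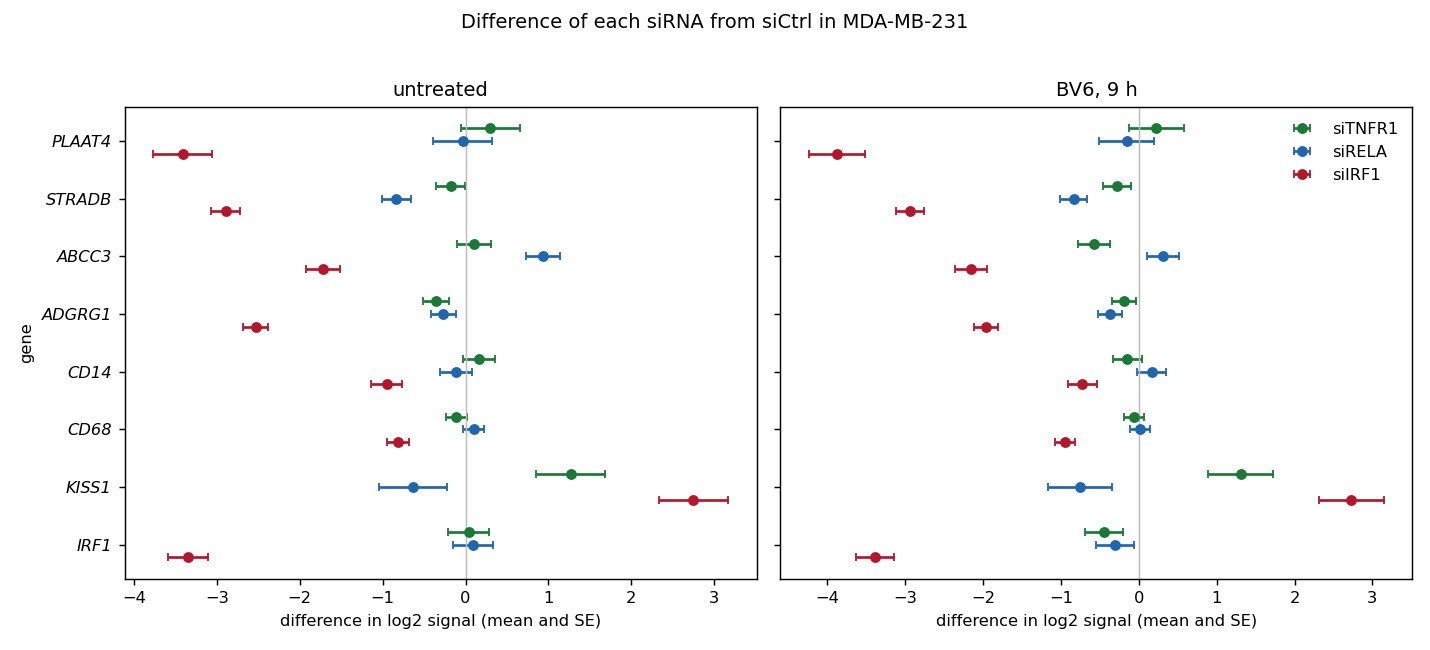
Difference of siTNFR1, siRELA and siIRF1 from siCtrl in log2 signal (points, mean; bars, SE; n = 3 arrays a group; all 3 share the siCtrl arrays) for the 7 genes and IRF1, untreated at left and with BV6 at right. PLAAT4, CD14 and CD68 lie between -0.16 and 0.30 with siTNFR1 and siRELA, and ADGRG1 between -0.37 and -0.19. STRADB is lower with siRELA. ABCC3 is higher with siRELA in untreated cells, and with BV6 it differs by -0.58 with siTNFR1 and 0.31 with siRELA. KISS1 is higher with siTNFR1 and lower with siRELA (-0.63 untreated, -0.76 with BV6). PLAAT4 and CD14 with siIRF1 and BV6 were not detected, so a fold from those points is a bound.

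The contrast of siRELA with siTNFR1 was not the one that chose the genes and was tested. Its arrays are among those that siIRF1 was set against in the choice, so its p-values may not be independent of that choice. The contrast asks which of the 7 genes differ between 2 siRNAs with other targets. In untreated cells STRADB and KISS1 were lower and ABCC3 higher with siRELA, 3 of 7 genes, where limma with Benjamini-Hochberg adjustment over all 9586 genes called 14.8%. The median difference of the 7 was -0.28 against 0.02 over all genes. KISS1 differed by -1.90 ± 0.41 (adjusted p = 0.00269), STRADB by -0.66 ± 0.18 (adjusted p = 0.0132) and ABCC3 by 0.83 ± 0.21 (adjusted p = 0.00732). With BV6 the same 3 genes were called, where 17.9% of all genes were: KISS1 by -2.06 ± 0.41 (limma, adjusted p = 0.00111), STRADB by -0.55 ± 0.18 (adjusted p = 0.0300) and ABCC3 by 0.89 ± 0.21 (adjusted p = 0.00350). The siRELA arrays of KISS1 and STRADB lay below, and those of ABCC3 above, all siTNFR1 arrays in both conditions. PLAAT4, ADGRG1, CD14 and CD68 passed in neither on their main probes, with differences between -0.38 and 0.31. The second bright CD68 probe, which was not tested by itself, was higher with siRELA by 0.62 in untreated cells and 0.49 with BV6. Its siRELA and siTNFR1 arrays did not overlap in either condition. IRF1 itself differed by 0.05 ± 0.25 and 0.14 ± 0.25 between these siRNAs, and passed in neither.

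The slides hold unequal parts of these groups. With the slide as a block the 3 genes kept their calls, at adjusted p from limma of 0.000561 for KISS1, 0.00950 for STRADB and 0.00493 for ABCC3 in untreated cells, and 0.000176, 0.0219 and 0.00208 with BV6. Within slide 1, KISS1 was called alone, at -2.10 and -2.41. Within slide 2 none was called, with KISS1 at -1.21 and -0.96, STRADB at -0.87 and -0.55 and ABCC3 at 0.58 and 1.04. STRADB with BV6 lost its call without siRELA replicate 1 (limma, adjusted p = 0.0810) or 3 (0.0868) and without siTNFR1 replicate 1 (0.104) or 2 (0.102), and in untreated cells without siRELA replicate 3 (0.0708).

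BV6 called none of the 7 genes in siTNFR1 or siRELA cells, where 1.32% and 0.303% of the 9586 genes were called. At an unadjusted p under 0.05, 3 of the 7 passed with siTNFR1, where 1107 of all 9586 genes did, and 0 with siRELA, where 566 did. CD14 came nearest in siTNFR1 cells. It read 7.34, 6.80 and 6.77 without and 6.41, 6.37 and 5.96 with BV6, a difference of -0.72 ± 0.19 (limma, adjusted p = 0.0550, n = 3 arrays a group). The arrays did not overlap, and with the slide as a block the adjusted p from limma was 0.0495. For the BV6 response of siRELA cells minus that of siTNFR1 cells, limma called 0 of 7 members and 0.0209% of all genes. At an unadjusted p under 0.05, 1 of 7 passed, as did 437 of all 9586 genes.

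The genes whose level over the 24 siRNA arrays was most like that of each member were found by Pearson correlation. Since siIRF1 sets most of the spread of the members, these genes share it, and the arrays are not independent of the choice. For ADGRG1 the nearest gene was IRF1 itself, at r = 0.957. PLAAT4 was followed by FUT8, NUP54 and LOXL4 (r = 0.966, 0.966 and 0.965), STRADB by PSAT1, PSMB9 and BTN3A2 (0.968, 0.965 and 0.961), ABCC3 by LFNG, TCFL5 and TCIRG1 (0.962, 0.961 and 0.960) and CD68 by DPY30, TMCO1 and IGF2BP3 (0.968, 0.944 and 0.943). KISS1 was followed by SLC30A5, ANKRD46 and PPP2R1B at a lower r of 0.902 to 0.915, and CD14 by AHNAK2, CAVIN3 and NAGK at 0.884 to 0.917. PSMB9, an immunoproteasome subunit, and BTN3A2, a butyrophilin, belong to the interferon-regulated genes. In the 16 kinetic arrays, which hold no siRNA, these 21 pairs had r between -0.30 and 0.70, and ADGRG1 with IRF1 had the lowest.

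Gene lists give the setting in which the 7 genes stood with siIRF1. Of 33 measured genes on a list of IRF1 and interferon gamma targets, 22 were lower and 1 higher with siIRF1 than with siCtrl in untreated cells, with a median of -0.85 against 0.00 over all genes, where 12.4% of all genes were lower and 9.33% higher. PSMB9 was at least 7.89-fold lower, GBP1, a guanylate-binding GTPase, differed by -1.67 ± 0.19 and UBE2L6, the ISG15-conjugating enzyme, by -1.62 ± 0.14. Of 31 interferon-stimulated genes, 22 were lower and 0 higher, with a median of -0.81. Of 25 measured partners and relatives of the 7 genes, 5 were lower and 1 higher, with a median of -0.08: ABCC4, another efflux pump, differed by -1.19 ± 0.16, LAMP1, a lysosomal membrane protein of the family of CD68, by -1.03 ± 0.15, LY96, which carries lipopolysaccharide with CD14, by -0.87 ± 0.26, and ADGRG6, another adhesion receptor, by 0.64 ± 0.20. Of 7 measured retinoid-responsive genes besides PLAAT4, TGM2 (-0.59 ± 0.20) was among the 2 lower, and CYP26B1, which degrades retinoic acid, was the 1 higher (1.44 ± 0.18). Of 2 measured monocyte and macrophage markers other than CD14 and CD68, CSF1R was lower, by at least 1.56-fold, and detected on 1 of 3 siCtrl arrays. The listed genes, unlike the 7, were counted by limma at an adjusted p under 0.05, and no test was run on a list.

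Transfection as such was looked at on the authors' normalised matrix, the only scale common to all arrays. KISS1 was lower in untreated siCtrl cells (7.80 to 8.19, n = 3) than in untransfected untreated cells (8.49 to 9.21, n = 6), by -0.95 on the deposited log2 scale. STRADB was higher in siCtrl cells by 0.50, with ranges of 9.68 to 9.95 and 9.16 to 9.43. Neither pair of ranges overlapped. For PLAAT4, ADGRG1, ABCC3, CD14 and CD68 they overlapped, with differences between 0.12 and 0.36. The siRNA arrays and the untransfected arrays lay on different slides, so slide and transfection cannot be told apart here. The siIRF1 arrays of KISS1, at 9.72 to 10.4, lay above the untransfected arrays as well.

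**Figure D3:**
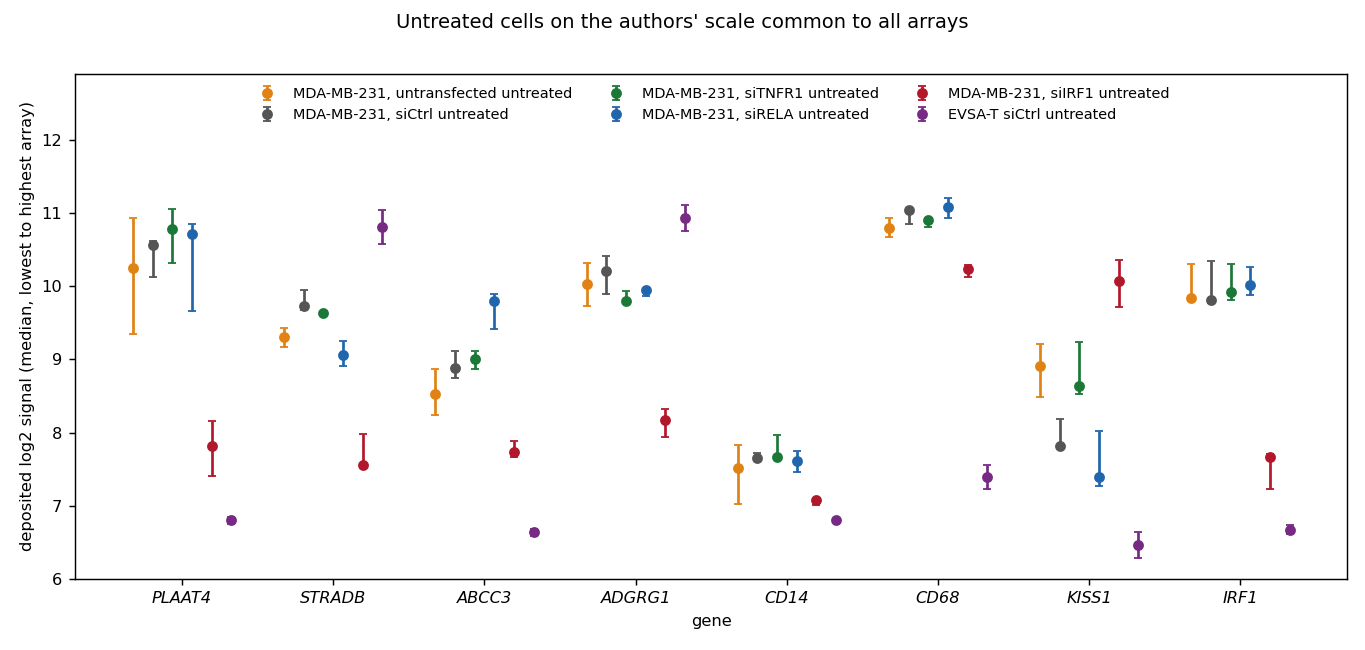
Deposited log2 signal of the 7 genes and IRF1 in untreated cells on the authors' common scale (points, median; bars, lowest to highest array; 6 untransfected arrays, 3 per siRNA in MDA-MB-231, 2 for EVSA-T; CD68 by the probe used for MDA-MB-231). EVSA-T lies lowest for PLAAT4, ABCC3, CD14, CD68, KISS1 and IRF1 and highest for STRADB and ADGRG1, and siCtrl lies below untransfected cells for KISS1.

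Without transfection, ABCC3 was the only one of the 7 genes called with BV6, at 12 and 15 h. ABCC3 fell: it read 8.26 and 8.49 at 0 h, 8.04 and 8.04 at 9 h and 7.62 and 7.94 at 15 h in untreated cells, and 7.60 and 7.41 after 12 h and 7.10 and 7.41 after 15 h of BV6. Each time was compared by limma with the mean of the 3 untreated groups, over 9944 genes, so the times share their controls. At 12 h ABCC3 fell by 0.56 on the log2 scale (SE 0.15, adjusted p = 0.0430), 1 of 7 members where 4.15% of all genes were called. At 15 h it fell by 0.81 (SE 0.15, adjusted p = 0.00308), or at least 1.75-fold with the probe undetected on both BV6 arrays, where 6.96% were called. The median over the 7 genes at 15 h was -0.43 against -0.05 over all genes. The untreated cells moved with time as well: ABCC3 at 15 h differed from 0 h by -0.59 ± 0.18 (limma, adjusted p = 1.00, with 0 of 9944 genes called and 290 at an unadjusted p under 0.05). Against the untreated cells of 15 h alone, BV6 at 15 h differed by -0.53 (adjusted p = 0.123), and without BV6 15 h replicate 1 by -0.65 (adjusted p = 0.101). The call at 12 h was lost in 10 of 15 alternatives, among them the arrays of slide 3 alone (-0.46, adjusted p = 0.334).

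STRADB read 8.46 and 8.51 after 15 h of BV6 against 8.86 to 9.17 on the 6 untreated arrays, with no overlap. The difference of -0.52 ± 0.16 gave an adjusted p from limma of 0.0600. With the replicate number as a block, where same-numbered arrays deviated together, the adjusted p was 0.0369. At 3 h it was -0.32 ± 0.16, and -0.67 (limma, adjusted p = 0.0315) without BV6 3 h replicate 1, when it rests on 1 array at 8.34. None of the 7 genes was called at 3, 6 or 9 h, where 0.382%, 0.473% and 1.22% of all genes were. At each of these times 1 member had an unadjusted p under 0.05, as did 1084, 765 and 1109 of 9944 genes. At 12 and 15 h, 4 and 3 of 7 members did, and 1886 and 2268 genes. After 12 h, STRADB (8.65 and 8.51) and the main CD68 probe (10.46 and 10.31) lay below all 6 untreated arrays. The lowest of these read 8.86 and 10.56. The differences of -0.43 and -0.30 did not pass (limma, adjusted p = 0.152 and 0.208). The second bright CD68 probe differed by 0.28. IRF1 read 10.92 and 10.25 at 3 h against 9.60 to 10.17 on the untreated arrays, which do not overlap, and its difference of 0.83 ± 0.18 gave an adjusted p from limma of 0.0735. KISS1 at 15 h, with its higher array at 8.21, differed by -0.40 ± 0.18 (adjusted p = 0.204), and CD68 by -0.12 ± 0.13. PLAAT4 split by replicate: its 8 arrays of replicate 1 read 10.04 to 10.83 and its 8 arrays of replicate 2 read 9.07 to 9.79. In the same cells 3 of 34 IRF1 and interferon gamma targets rose at 15 h and 0 fell, among them TNFSF10 (TRAIL) by 1.61 ± 0.37 (limma, adjusted p = 0.0164), where 3.87% of all genes rose.

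**Figure D4:**
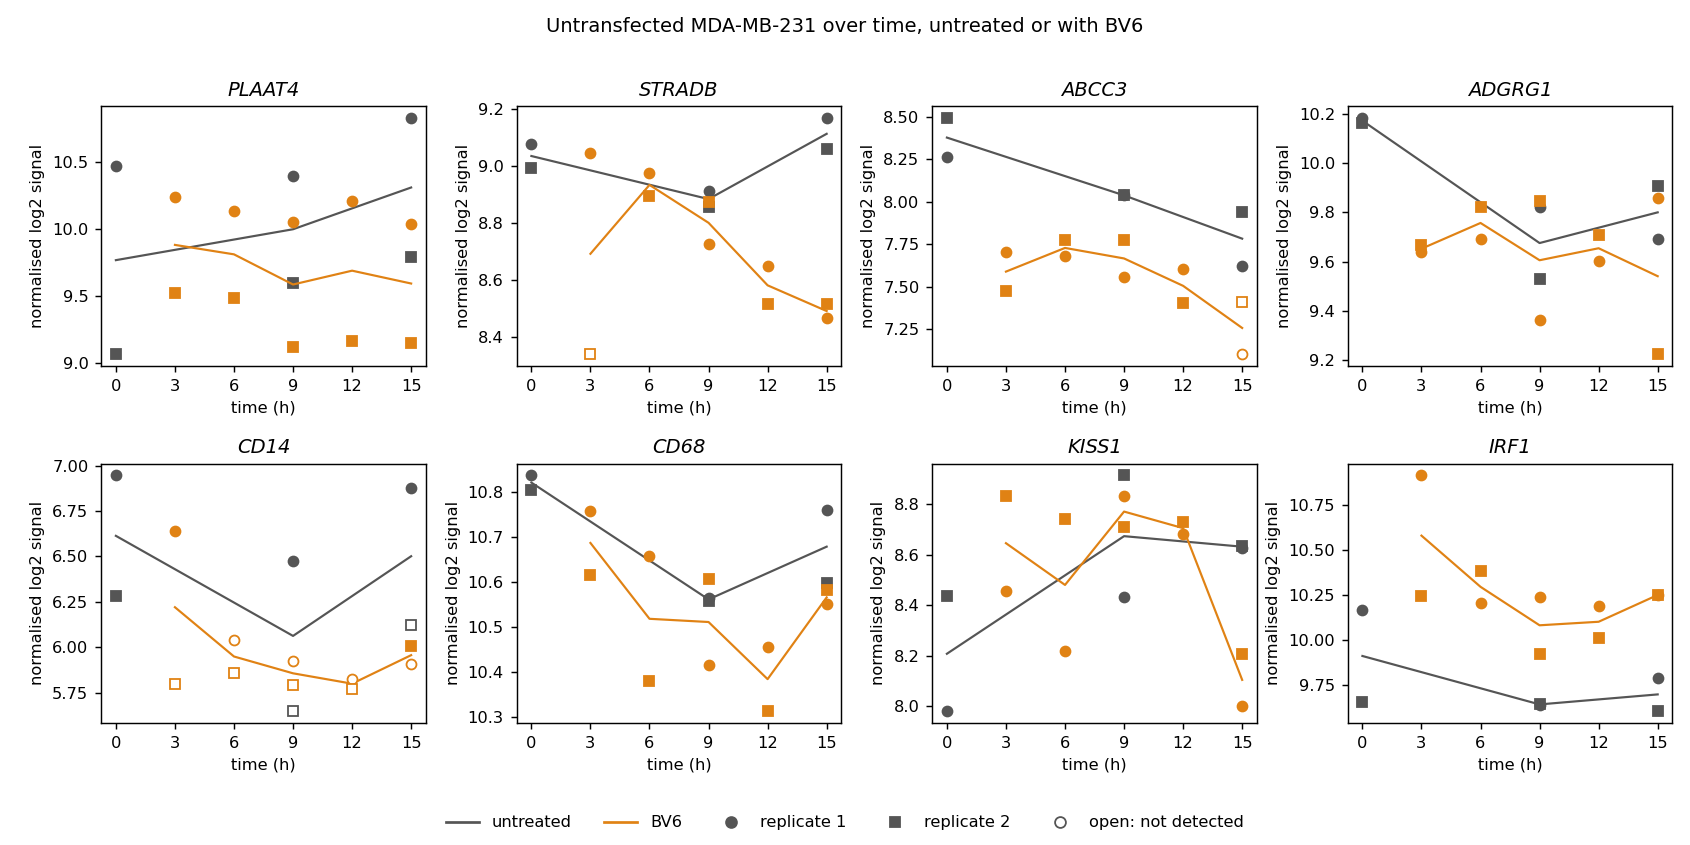
Normalised log2 signal over time in untransfected MDA-MB-231 (2 arrays per time; grey untreated at 0, 9 and 15 h, orange BV6 at 3 to 15 h; circles replicate 1, squares replicate 2, open symbols not detected, lines join means). ABCC3 with BV6 lies lowest at 15 h while its untreated arrays also decline from 0 h, PLAAT4 separates by replicate, and the vertical scales differ between panels.

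EVSA-T cells give a setting in which IRF1 changes without siIRF1, but it does so under BV6. With siCtrl, BV6 called 11.4% of 8422 genes there, so IRF1 and any other effect of BV6 cannot be told apart. Untreated, the IRF1 probe read 5.26 and 5.33 with siCtrl, detected on neither array. With BV6 it read 10.71 and 10.31. IRF1 thus rose at least 37.1-fold (limma, adjusted p = 1.30e-05, n = 2 arrays a group). Its probe was detected only on arrays with BV6 and passed the filter on detection through them. With siTNFR1 it read 5.15 and 5.22 without and 8.31 and 6.64 with BV6, of which 1 array detected it. The rise with siTNFR1 was at least 4.76-fold and did not pass (adjusted p = 0.135). TNFRSF1A itself was at least 6.62-fold lower with siTNFR1 in untreated cells (limma, adjusted p = 0.0107). Of the 7 genes, STRADB, ADGRG1 and CD68 passed the filter on detection in EVSA-T. PLAAT4, KISS1, ABCC3 and CD14 did not: their probes read between 5.09 and 5.68 on all 8 arrays, with PLAAT4 and KISS1 detected on none and ABCC3 and CD14 each on 1, also where IRF1 was high.

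ADGRG1 fell with BV6 in EVSA-T cells with siCtrl, and it was lower with siIRF1 in MDA-MB-231. It read 10.42 and 10.79 with siCtrl and 9.40 and 9.44 with siCtrl and BV6, which is -1.18 ± 0.20 (limma, adjusted p = 0.00320). Its other detected probe differed by -1.16. With siTNFR1 the main probe read 10.74 and 10.34 without and 10.56 and 10.59 with BV6, a difference of 0.04 ± 0.20 that did not pass. The other detected probe read 10.25 and 9.97 without and 10.02 and 9.73 with BV6, a difference of -0.24. Under BV6 the siTNFR1 level exceeded siCtrl by 1.16 ± 0.20 (limma, adjusted p = 0.00401), and by 0.96 on the other probe. On the main probe the 2 BV6 responses differed by 1.22 ± 0.28 (limma interaction, adjusted p = 0.0391), where 3.85% of all genes were called, and this passed in 5 of 14 alternatives.

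CD68 rose with BV6 in EVSA-T cells with siCtrl on 1 probe. That probe, the second bright one of MDA-MB-231, read 7.37 and 7.56 with siCtrl and 8.85 and 9.38 with siCtrl and BV6, which is 1.65 ± 0.21 (limma, adjusted p = 0.000411). With siTNFR1 it read 7.41 and 7.48 without and 8.01 and 7.85 with BV6, which is 0.48 ± 0.21 and did not pass. Under BV6 the siTNFR1 level was lower by -1.18 ± 0.21 (limma, adjusted p = 0.00400). The responses differed by -1.16 ± 0.29 (limma interaction, adjusted p = 0.0552), which passed in 4 of 13 alternatives. The probe that stands for CD68 in MDA-MB-231 was near background in EVSA-T, at 5.63 to 6.14, and differed by 0.18 with BV6. Beside CD68, the 2 measured genes of 18 on the monocyte and macrophage list also rose: S100A8 by 5.08 ± 0.25 (limma, adjusted p = 9.82e-07) and S100A9 by 3.03 ± 0.24 (adjusted p = 1.38e-05), both calcium-binding proteins that epithelial cells can also make. The summed linear signal of that list went from 1924 to 2023 with siCtrl to 19413 to 19433 with BV6, and 13 of its 17 genes with a probe, AIF1, CSF1R, LYZ and SPI1 among them, were detected on no EVSA-T array.

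**Figure D5:**
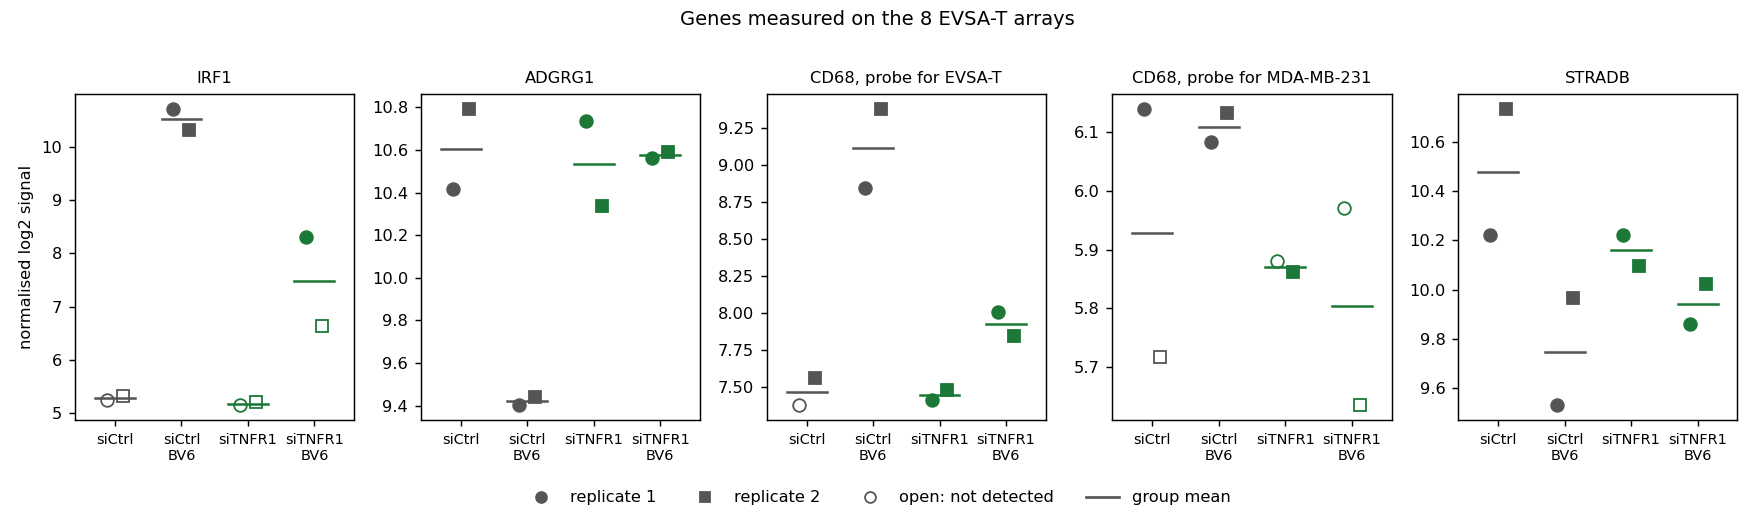
Normalised log2 signal on the 8 EVSA-T arrays (2 per group; grey siCtrl, green siTNFR1; circles replicate 1, squares replicate 2, open symbols not detected, bars group means) for IRF1, ADGRG1, both CD68 probes and STRADB. ADGRG1 is shown by its main probe. With siCtrl and BV6, IRF1 and CD68 on the first probe are high and ADGRG1 is low, while with siTNFR1 and BV6 the main ADGRG1 probe stays at its untreated level. The vertical scales differ between panels.

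STRADB read 10.22 and 10.73 with siCtrl and 9.53 and 9.96 with siCtrl and BV6 in EVSA-T. The difference of -0.73 ± 0.22 did not pass (limma, adjusted p = 0.0599) and passed in 4 of 10 alternatives. With siTNFR1 it was -0.22 ± 0.22. In all, BV6 called 2 of the 3 measured members with siCtrl, where 11.4% of 8422 genes were called, and 0 of 3 with siTNFR1, where 0.0712% were. With siTNFR1, 1 of 3 had an unadjusted p under 0.05, as did 277 of 8422 genes. The siTNFR1 and siCtrl levels differed for 0 of 3 without BV6, where 0.0356% of genes were called, and for 2 of 3 with BV6, where 11.5% were. Without BV6, 0 of 3 had an unadjusted p under 0.05, while 608 of 8422 genes did. Of 17 measured IRF1 and interferon gamma targets, 6 rose and 0 fell with BV6 and siCtrl, where 6.84% of all genes rose, among them CXCL10, a chemokine, by at least 33.1-fold (limma, adjusted p = 8.04e-08) and TAP1, a peptide transporter, by 2.95 ± 0.20 (adjusted p = 4.93e-06). Of 22 measured partners and relatives, 2 rose: TICAM1, a Toll-like receptor adaptor, by 2.21 ± 0.32 (adjusted p = 0.00121) and GNA12, a G protein subunit that ADGRG1 can signal through, by at least 1.79-fold (adjusted p = 0.0301). CXCL10 and GNA12 were undetected with siCtrl without BV6, so they may have passed the filter on detection through arrays with BV6.

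The 2 cell lines differed in all 7 genes. They were compared in untreated siTNFR1 cells. The MDA-MB-231 arrays used here are among those that siIRF1 was set against when the genes were chosen, and PLAAT4, ABCC3, KISS1 and CD14 entered through the line in which they are high, so the values of the 7 genes are a description. Past the same threshold stood 2 members higher and 5 lower in EVSA-T, where limma called 62.7% of 10716 genes, and nothing is read from that count. PLAAT4 was at least 36.2-fold lower, ABCC3 at least 9.83-fold, KISS1 at least 8.26-fold and CD14 at least 2.67-fold, each detected on none of 2 EVSA-T and 3 of 3 MDA-MB-231 arrays. STRADB was higher by 0.99 ± 0.17 and ADGRG1 by 1.11 ± 0.18. CD68 was lower by -1.54 ± 0.16 on the probe used for EVSA-T and by -4.64 on the one used for MDA-MB-231. IRF1 was at least 22.6-fold lower in EVSA-T. STRADB and ADGRG1 were higher in the line in which IRF1 was undetected, and lower with siIRF1 in the other, and the cause was not tested. Each line lay on slides of its own in this comparison, so line and slide cannot be told apart, and since separate cultures are not stated for the replicates, all p-values measure the spread between arrays, which may be technical.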

How the data were processed

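RNA from 48 samples was measured on Illumina HumanHT-12 arrays. The authors deposited a table of signals, whose values (5.47 to 14.9) were read as log2. Beside each signal the deposited table has a detection p-value, per the file headers, and no source used here states how either was computed. The detection p does not follow the signal alone: on 40 arrays an undetected probe was brighter than the median detected one, so "not detected" can hold for a probe well above background. The authors' series matrix, in log2 units and quantile normalised over all arrays, served as an alternative and for levels across experiments.

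Per experiment, limma 3.58.1 in R 4.3.3 (neqc, offset 16) corrected the background and quantile normalised. A 1-symbol probe entered if detected (p under 0.01) on 3 or more siRNA arrays or 2 or more arrays of another experiment, the size of the smallest group, and each gene was read from its probe of highest mean signal: 9586 siRNA, 9944 kinetic, 8422 EVSA-T and 10716 joint genes. All 7 members passed except 4 in EVSA-T. Where a probe was undetected on every array of a group, a fold is a bound, the mean of the brighter group over the higher of the dimmest detected signal and the probe's own. The bound is the measured ratio where the probe's own signal was the higher, and it makes no allowance for the error of the means. Tests were two-sided moderated tests with Benjamini-Hochberg adjustment over all genes, called at an adjusted p under 0.05, and were tested on simulated data. Errors after ± are standard errors. Replicate numbers met the rule for pairing samples only in the kinetic at 6, 9, 12 and 15 h, where every same-numbered pair of residuals had r above 0.1 (0.150 to 0.400). The main fits hold no pairing, also at these times, and the replicate number as a block was run as an alternative.

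The 7 genes, the gene lists and the comparisons were chosen with earlier results of these data known; both interaction tests were added with the values in view. Named genes are the members, the siRNA targets, the 3 nearest genes by correlation and, per list, up to 3 called genes in each direction. Symbols came from the platform annotation, and 0 changed when matched to RefSeq by Entrez identifier. Promoter sequences are RefSeq's (GRCh38.p14); the probes carry no build, so no probe coordinates are given.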

Additional observations from a re-analysis of the deposited data

Results flagged for a closer look

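In EVSA-T, the BV6 response of 2 genes differed between siTNFR1 and siCtrl cells by an interaction test in limma. For ADGRG1 the response with siTNFR1 minus that with siCtrl was 1.22 ± 0.28 on the log2 scale (adjusted p = 0.0391). On this main probe both siCtrl arrays were lower under BV6 and both siTNFR1 arrays lay inside the range of their untreated arrays. On the other detected probe BV6 differed by -0.24 with siTNFR1. For IRF1 it was -2.92 ± 0.58 (adjusted p = 0.0177), where 3.85% of all 8422 genes were called. No group held the 4 arrays needed to look for single outlying arrays.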

How the results depend on the processing

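No called value of a member changed its sign under the alternatives run; of 99 tested values, 33 took the other sign under at least 1 alternative, and 0 of these were called, among them PLAAT4 and CD14 for siRELA against siTNFR1 in untreated cells and PLAAT4 at each time of BV6. Of 242 counts of members under an alternative, 214 stayed within 1.5 times the main count and 28 moved; of the single values, 1570 kept their side, 37 lost and 12 gained a call, and 34 descriptive values moved by more than the replicate spread. Requiring detection on every array left 1 member in the siRNA experiment (siIRF1 outside the other siRNAs for 1 of 1 in both conditions, siRELA against siTNFR1 0 of 1 in both), 4 in the kinetic (0 of 4 at 12 h and 0 of 4 at 15 h) and 2 in EVSA-T (siTNFR1 with BV6 1 of 2) and between lines (2 of 2), so these counts fell with the genes measured. BV6 in siTNFR1 cells called 1 member, CD14, with the replicate block (adjusted p = 0.0234) and 1 with the slide block. Within single slides, siRELA against siTNFR1 called 1 member on slide 1 alone and 0 on slide 2 alone, both without and with BV6, with fewer arrays. At 12 h of BV6, 0 members were called with no background correction, with the series matrix and on slide 3 alone; at 15 h, 2 with the replicate block and 0 against untreated cells of the same time; the causes were not tested. Leaving out each replicate in turn gave 0 to 1 members at 3 h, at 12 h and at 15 h and 2 to 3 for siRELA against siTNFR1 in both conditions. Without background correction and on the series matrix the siIRF1 differences were smaller, for PLAAT4 -2.71 and -2.73 in place of -3.50 against the mean of the other siRNAs. The replicate block changed no other call of a member than those named, STRADB with BV6 in EVSA-T (adjusted p = 0.0217) and the CD68 interaction (adjusted p = 0.0259). Signal over background limits CD14 everywhere and PLAAT4, STRADB and ABCC3 with siIRF1.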

Other observations

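In the kinetic experiment PLAAT4 divided by replicate number rather than by BV6: the 8 arrays of replicate 1 exceeded the 8 of replicate 2 by 0.93 on average with no overlap. Over 9944 genes, 0.292% had all replicate 1 arrays above all replicate 2 arrays and 0.161% the reverse, and the other 6 members overlapped. The 3 untreated pairs lay on 1 slide, so the division is present within a slide.

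Some luminal epithelial genes were lower with siIRF1, while the median of the list lay near that of all genes. The summed linear signal of the list, which its brightest genes set, was 4403 to 4801 with siIRF1 in untreated cells. It was 7331 to 9030 with siCtrl, 6858 to 7481 with siTNFR1 and 7189 to 7739 with siRELA. Of 9 measured, limma called 4 lower than with siCtrl in untreated cells and 0 higher at an adjusted p under 0.05, where 12.4% of all genes were lower, and the list's median was -0.02 against 0.00 over all genes: SPDEF, an ETS transcription factor, differed by -2.44 ± 0.24, KRT19, a luminal keratin, by -1.12 ± 0.15 and CLDN7, a claudin, by -1.06 ± 0.19.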
